A study of Homo sapiens with 4 samples.

Results

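RNA levels with and without knockdown of the m6A reader YTHDF2 were compared between genes that carried different numbers of m6A peaks, and between genes whose peaks lay in the 3' UTR, in exons or in the 5' UTR. The table of RNA levels lists 28283 genes. Of these, 12268 reached an FPKM of 1 in either of the 2 input libraries and were taken, where FPKM counts fragments per length of transcript, relative to all fragments mapped in that library. Each gene was placed by the number of distinct peaks listed under its gene ID in the control cells. This gave 2301 genes with 0 peaks, 2549 with 1, 2624 with 2, 2083 with 3 and 2711 with 4 or more. All listed peaks were counted, whatever their deposited false discovery rate (FDR), so weak calls count as tags. The FDR was 0.29 for the only peak of SUSD2. With peaks of an FDR of at most 0.001 alone, 6670 of the 12268 genes had no peak.

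The cells were A549, a human lung adenocarcinoma line. Control cells (shNC) carried the pLKO.1 lentiviral vector and knockdown cells (shY2-2) carried 1 of the study's 2 shRNAs against YTHDF2. Poly(A) RNA was broken into fragments, and from each condition 1 library was made before (input) and 1 after pull-down with an m6A antibody, 4 libraries in all. Both lines come from 1 parental line by stable lentiviral infection, and the other shRNA was not analysed here.

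N6-methyladenosine (m6A) is a methyl mark set on adenosines of mRNA, mainly within DRACH sites of which GGAC is a common core, by a complex built on METTL3 and METTL14. It lies mostly near stop codons and in 3' UTRs. YTHDF2 is a cytoplasmic protein that binds m6A through its YTH domain, recruits the CCR4-NOT deadenylase and the RNase P/MRP endoribonuclease to the transcript, and is known for shortening the life of the mRNAs it binds. A question such data address is therefore whether tagged mRNAs were more abundant in cells with less YTHDF2, and whether more tags or tags in the 3' UTR went with a larger difference.

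Peaks are shown here by 1 short GGAC site for each of 10 genes. Of these, 6 have 4 or more peaks and were named for a high or low log2 ratio. The others are YTHDF2 itself and genes with fewer peaks that are described further on. Each stretch is the transcript strand of the GRCh38 reference, 5' to 3', with the GGAC letters in capitals.

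ARL2BP, chr16:57253239-57253266, + strand, last of 6 exons, 3' UTR: tgggttaggtagGGACtctgcagtttct

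RSAD1, chr17:50482140-50482167, + strand, exon 4 of 9, coding sequence: gcgatgctctgcGGACgctggcagaggc

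ATP1B3, chr3:141925751-141925778, + strand, last of 7 exons, 3' UTR: tttgtaacagctGGACcttccattctag

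DAG1, chr3:49535112-49535139, + strand, last of 3 exons, 3' UTR: tgcgggctcagtGGACcactggtgactg

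TMEM2, chr9:71745354-71745381, - strand, exon 4 of 24, coding sequence: tggaagctggcgGGACactggagttaca

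AGR2, chr7:16801689-16801716, - strand, exon 2 of 8, coding sequence: tggagccaaaaaGGACacaaaggactct

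YTHDF2, chr1:28742757-28742784, + strand, exon 4 of 5, coding sequence: gccatgattgatGGACagtcagcttttg

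CCNE1, chr19:29824043-29824070, + strand, last of 12 exons, 3' UTR: acttgacctaagGGACtcccacaacaac

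GABARAPL1, chr12:10221872-10221899, + strand, last of 4 exons, 3' UTR: atgggagcacctGGACttgggggtaggg

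TMSB4X, chrX:12977057-12977084, + strand, last of 3 exons, 3' UTR: agaagtggggtgGGACgacagtgaaatc

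The letters GGAC stood on the transcript strand in 60.2% of the 23781 peaks of the 12268 genes that could be read from a canonical transcript. A match is thus common and marks no proven site. The site shown was picked for lying near the middle of its peak, whatever letter followed. In RSAD1 and TMSB4X a G follows GGAC, so these sites do not match DRACH, where H is A, C or U. Peaks span 241 nt of the transcript at the median, far more than the letters shown. The share with GGAC was 65.8% for the peaks of genes with 1 peak and 57.5% for those of genes with 4 or more. Exon and region names come from the canonical transcript of GENCODE release 44. They can differ from the location that the authors gave a peak, and the TMSB4X, AGR2 and YTHDF2 sites sit in peaks deposited as 5' UTR and the RSAD1 site in one deposited as 3' UTR.

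The knockdown was read first in its target. YTHDF2 RNA (ENSG00000198492) was at 3.56 FPKM in shNC and 1.02 in shY2-2. Its log2 ratio was -1.18, where the log2 ratio is the log2 of the shY2-2 FPKM plus 1 over the shNC FPKM plus 1 and so understates differences of weakly expressed genes. YTHDF2 mRNA itself carried 4 peaks in shNC cells. Both libraries held the keratins of an epithelial line, with KRT7 at 649 in shNC and 399 in shY2-2, KRT8 at 523 and 322, and KRT18 at 388 and 281. CDH1, the epithelial cadherin, was at 9.99 and 5.28. All 6 epithelial markers read were lower in shY2-2. The leukocyte marker PTPRC and the endothelial marker PECAM1 were below 0.1 in both libraries, while CD68 was at 12.2 and 10.2. Of the fibroblast and smooth muscle markers, ACTA2 was at 4.33 and 3.65 and COL1A1 at 0.83 and 1.64. COL3A1 was at 0.71 and 0.12 and DCN at 0.26 and 0.024. How many fragments stand behind an FPKM value is unknown, so no counting interval can be given. Each condition has 1 input library, so all differences are between these libraries and have no replicate check. In RNA from whole cultures, fewer cells of a type and less RNA per cell cannot be told apart.

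Tag number sorted genes by their build more than by their response. Genes with 0, 1, 2, 3 and 4 or more peaks had a median spliced length of 1715, 2397, 2930, 3375 and 3970 nt. Their median number of exons went from 4 to 11 and their median longest exon from 858 to 2059 nt. The median shNC FPKM was 2.16 in genes with no peak and 7.88 in genes with 4 or more. Protein-coding genes made up 55.5% of the genes with no peak and 98.4% of those with 4 or more. The density of GGAC along the transcript did not follow the peak number, with medians of 3.67 per kb at 0 peaks, 3.84 at 1 and 3.59 at 4 or more. Across the 12268 genes, the Spearman correlation of peak number was 0.35 with mean expression and, over the 12202 genes with a reference transcript, 0.32 with spliced length. Both describe genes of the same libraries, and the peaks were called on one of the input libraries used for the expression value.

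With all listed shNC peaks counted, the groups had nearly the same centre. The median log2 ratio was -0.026 for genes with 0 peaks, 0.037 for 1 peak, 0.004 for 2, 0.007 for 3 and -0.013 for 4 or more, beside 0.002 for all genes. The share of genes higher in shY2-2 lay between 47.3% at 0 peaks and 53.9% at 1 peak, and was 48.9% at 4 or more. The range between the quartiles was 0.56 on the log2 scale at 0 peaks and 0.47 at 4 or more, so the medians differed by a small part of the spread within each group. The Spearman correlation between peak number and log2 ratio was -0.016 over the 12268 genes. The medians lay further apart with stricter sets of peaks. For 0, 1, 2, 3 and 4 or more peaks of an FDR of at most 0.001, they were -0.040, 0.040, 0.067, 0.070 and 0.045. With shNC peaks that overlap a shY2-2 peak they were -0.063, 0.017, 0.034, 0.060 and 0.065. These medians are not matched on length or expression.

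**Figure D1:**
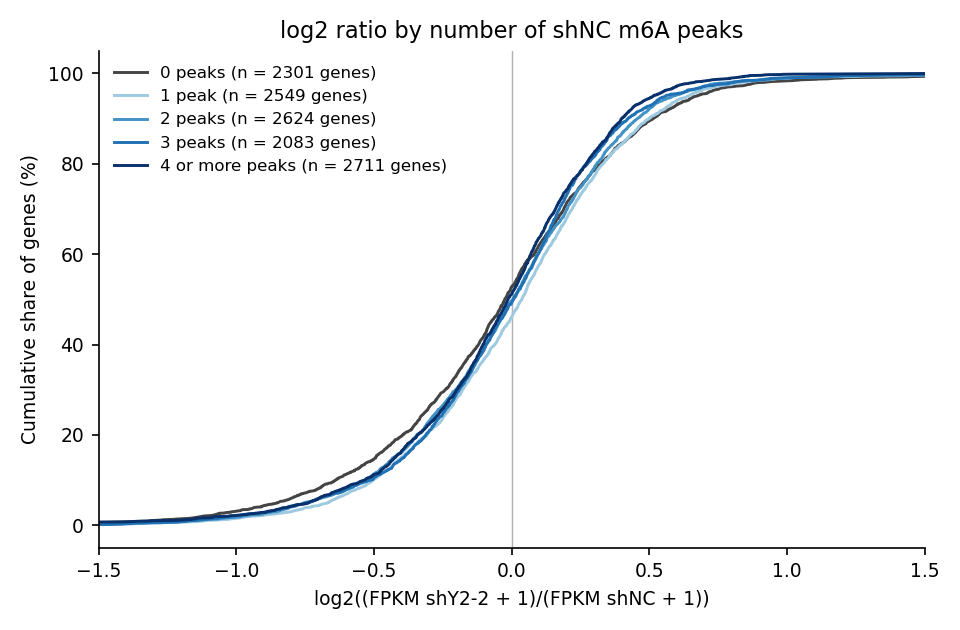
The curves give, for each number of shNC peaks, the cumulative share of genes (vertical axis, percent) with a log2 ratio of shY2-2 over shNC at or below the value on the horizontal axis. The axis stops at -1.5 and 1.5, and the 5 curves lie close together around medians between -0.026 and 0.037, with the curve of genes with 0 peaks the flattest.

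The tails differed more than the centre. Over all genes, the log2 ratio was above 1 in 121 (0.986%) and below -1 in 262 (2.14%). Above 1 lay 39 of the genes with 0 peaks (1.69%), 28 of those with 1 (1.10%), 27 with 2 (1.03%), 21 with 3 (1.01%) and 6 with 4 or more (0.221%). Below -1 the numbers were 72 (3.13%), 39 (1.53%), 47 (1.79%), 44 (2.11%) and 60 (2.21%). Genes with 4 or more peaks thus had few members far higher in knockdown cells, while their share far lower was close to that of all genes at this pseudocount. Below -1 lay 3.54% of them with a pseudocount of 0.1, where 602 of the 12268 genes did, and 0.848% with a pseudocount of 5, where 60 did. At a fold of 1.5, which 5.38% of all genes reached upward and 8.92% downward, 90 genes with 4 or more peaks were higher (3.32%) and 243 lower (8.96%). Genes with 0 peaks gave 7.61% and 11.8%. Among genes that reached 5 FPKM in either library, 19 of 594 with 0 peaks (3.20%) and 6 of 1962 with 4 or more (0.306%) lay above 1. Below -1 lay 27 (4.55%) and 46 (2.34%). Of all 6696 genes at this level, 82 (1.22%) lay above 1 and 180 (2.69%) below -1. The tail counts are not matched on length or expression. In the shortest of 5 length classes 35 of 2439 genes lay above 1 and 53 below -1, and in the longest 8 and 74 of 2441. Grouped by the shY2-2 list, 0.451% of the genes with 4 or more peaks lay above 1 and 1.35% below -1.

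Since tag number went with length and expression, groups were compared within cells of 5 bins of mean expression by 5 bins of spliced length. In each cell the median log2 ratio of genes with no peak was subtracted, and the differences were averaged with the weight of the tagged genes. The matched difference was 0.026 for the 2518 genes with 1 peak, -0.0033 for 2591 with 2, 0.0022 for 2026 with 3 and 0.0079 for 2604 with 4 or more. Before matching the differences had been 0.062, 0.030, 0.032 and 0.013. A difference of 0.026 on the log2 scale is a small part of the spread of single genes. With the shNC list the values did not go up with the number of peaks. For all 9739 genes with any peak the matched difference was 0.0083.

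These small values depended on which library was used to set the bins. With bins from the shNC library alone, genes with 4 or more peaks were 0.085 above genes with no peak. With bins from the shY2-2 library alone they were 0.042 below it. Grouping genes by the peaks of the shY2-2 list in place of the shNC list gave 0.031, 0.045, 0.077 and 0.096 for 1, 2, 3 and 4 or more peaks. With shNC peaks that overlap a shY2-2 peak the values were 0.057, 0.067, 0.087 and 0.098 in the same order. Each of these choices takes in a library that is also one side of the log2 ratio. So does the main comparison, as the shNC peaks were called on the shNC input library. For genes with 4 or more peaks these values spread over a wider range than the matched differences between tag numbers.

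**Figure D2:**
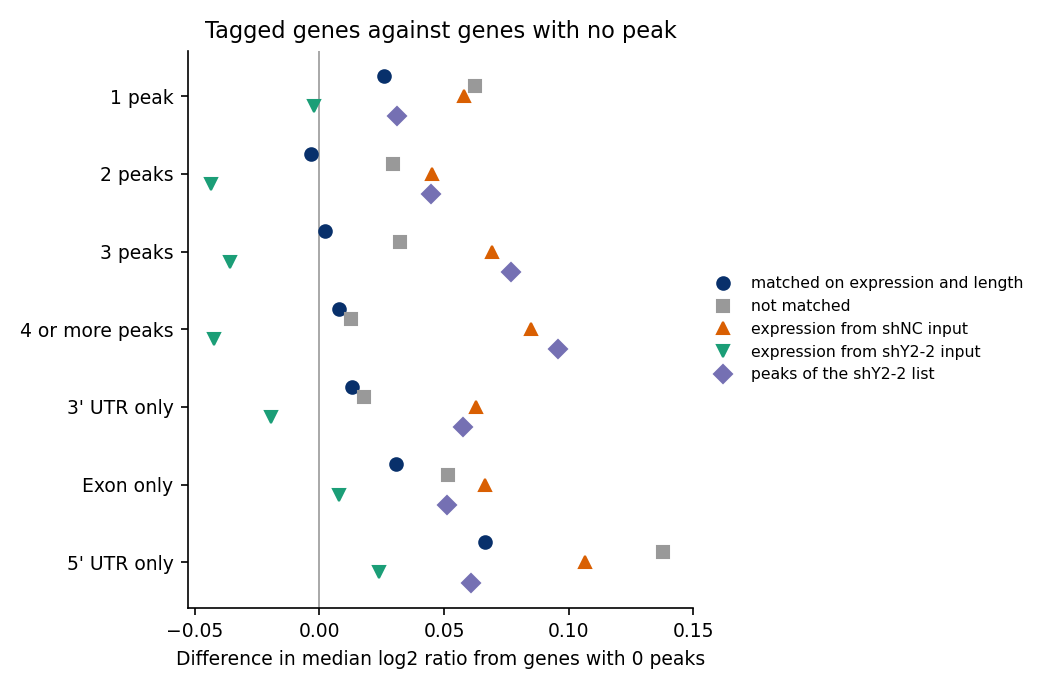
Each point is the difference in median log2 ratio (horizontal axis) between the genes named on the vertical axis and genes with 0 peaks, under 5 ways of comparing them. With both libraries setting the expression bins (dark circles) the points for 1 to 4 or more peaks lie between -0.0033 and 0.026, and they move right with expression from shNC and left with expression from shY2-2.

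The location of tags, as deposited with the peaks, gave a similar picture. A peak can reach beyond the region it was deposited under. Genes with peaks in the 3' UTR only, 3527 in number, had a median log2 ratio of -0.008. The 998 genes with peaks in exons only had 0.026, and the 4980 genes with peaks in more than 1 location had 0.007. The 462 genes with peaks in the 5' UTR only stood somewhat apart with 0.11, and 62.3% of them were higher in shY2-2. They were also built differently, with a median spliced length of 1724 nt against 3383 nt for genes tagged in the 3' UTR only, and a median 3' UTR of 487 nt against 1624 nt. Matched on expression and length, the difference from genes with no peak was 0.066 for 5' UTR only (450 genes), 0.031 for exons only (977 genes), 0.013 for 3' UTR only (3459 genes) and -0.0047 for mixed locations. Among protein-coding genes alone, the difference for exons only was -0.013. The difference between 5' UTR only and 3' UTR only was 0.12 before matching and 0.038 after it. With peaks of a deposited FDR of at most 0.001 alone, the 0.066 of genes tagged in the 5' UTR only went down to 0.012.

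Far values were read in the same groups. Of genes tagged in the 3' UTR only, 37 lay above 1 and 66 below -1, which are 1.05% and 1.87%. Of genes tagged in the 5' UTR only, 7 lay on either side (1.52%). Among genes tagged in exons only, 545 were protein-coding with a median of -0.060 and 254 were long noncoding RNAs with a median of 0.055. Genes with a single peak differed from genes with none by 0.021 where it lay in the 3' UTR, 0.068 where it lay in an exon and 0.064 where it lay in the 5' UTR. Adding tags within the 3' UTR gave no ordered series, with matched differences of 0.021, -0.0036, -0.011 and 0.062 for 1, 2, 3 and 4 or more peaks. These do not share 1 reference. It held 2255 untagged genes for 1 and 2 peaks, 1276 for 3 and 1101 for 4 or more (385 tagged genes).

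Strength of the tag was read from the fold enrichment of a gene's strongest shNC peak, the ratio of pull-down over input. The matched difference was -0.079 for genes under 2, 0.0054 for 2 to 4, 0.034 for 4 to 8 and 0.074 for 8 or more. The series was ordered. The shNC input library is the divisor of both the enrichment and the log2 ratio. With enrichment from the shY2-2 list the same 4 classes gave 0.042, 0.064, 0.053 and 0.067, with no order. There the shY2-2 input library is the divisor of the enrichment and the upper side of the log2 ratio, so neither series is free of a shared library. What this sharing did to either series was not tested. Above 1 lay 6 of 1182 genes of the strongest class (0.508%) and 11 of 1718 of the weakest (0.640%), beside 0.986% of all genes. Below -1 lay 12 (1.02%) and 41 (2.39%), beside 2.14%.

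How tags differed between the lists was also compared. The 4697 genes with fewer peaks in shY2-2 than in shNC had a median log2 ratio of -0.042, and 45.7% of them were higher in shY2-2. The 3097 genes with as many had 0.054 and the 2872 genes with more had 0.025. Genes with 4 or more shNC peaks went from a median of -0.19 where the shY2-2 list had 0 peaks (67 genes) to 0.030 where it too had 4 or more (1339 genes). Genes with 0 shNC peaks had medians of -0.017 where the shY2-2 list also had 0 (1602 genes), -0.033 at 1 and -0.078 at 2. At 3 shY2-2 peaks their median was -0.020 (35 genes) and at 4 or more -0.21 (14 genes), so these were not ordered. Genes with 1 shNC peak showed no order, with -0.00060, 0.057, 0.0058, 0.069 and 0.011 for 0 to 4 or more shY2-2 peaks. The part of the RNA level in the calling of peaks was not tested. Among genes in the same group in both lists, the medians were -0.017, 0.057, 0.046, 0.070 and 0.030 for 0 to 4 or more peaks.

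Length of the transcript and mean expression went with the log2 ratio more than tag number did. For mean expression the Spearman correlation was 0.14 over 12268 genes. The Spearman correlation between spliced length and log2 ratio was -0.25 over 12202 genes and -0.29 over the 10682 protein-coding genes. In protein-coding genes it was -0.30 without a peak (1276 genes), -0.29 with 1 or more (9406 genes) and -0.25 with 4 or more (2668 genes), so the gradient was there with and without tags. It was -0.25 for coding length, -0.19 for 3' UTR length and -0.22 for the number of exons. Among the genes of the shortest of 5 equal length classes, 53 to 1406 nt, 63.3% were higher in shY2-2 and the median was 0.12. In the longest class, 5359 nt and over, 32.2% were higher and the median was -0.16.

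Tagged and untagged genes followed the same slope with some differences at its ends. In the shortest class the median was 0.029 with 0 peaks and between 0.14 and 0.19 in the groups with peaks. Among protein-coding genes of that class it was 0.10 without peaks and 0.16 with them. In the longest class it was -0.23 with 0 peaks, -0.14 with 1, -0.19 with 2, -0.15 with 3 and -0.12 with 4 or more. By expression, in the highest of 5 equal classes, the medians followed tag number downward, from 0.19 at 0 peaks through 0.18, 0.13 and 0.10 to 0.045 at 4 or more. In the lowest class they were -0.065, -0.025, -0.075, -0.056 and -0.12. The medians by expression class are not matched on length. For 4 or more peaks, the difference from 0 peaks was -0.069 matched on expression only and 0.0079 matched on length too.

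**Figure D3:**
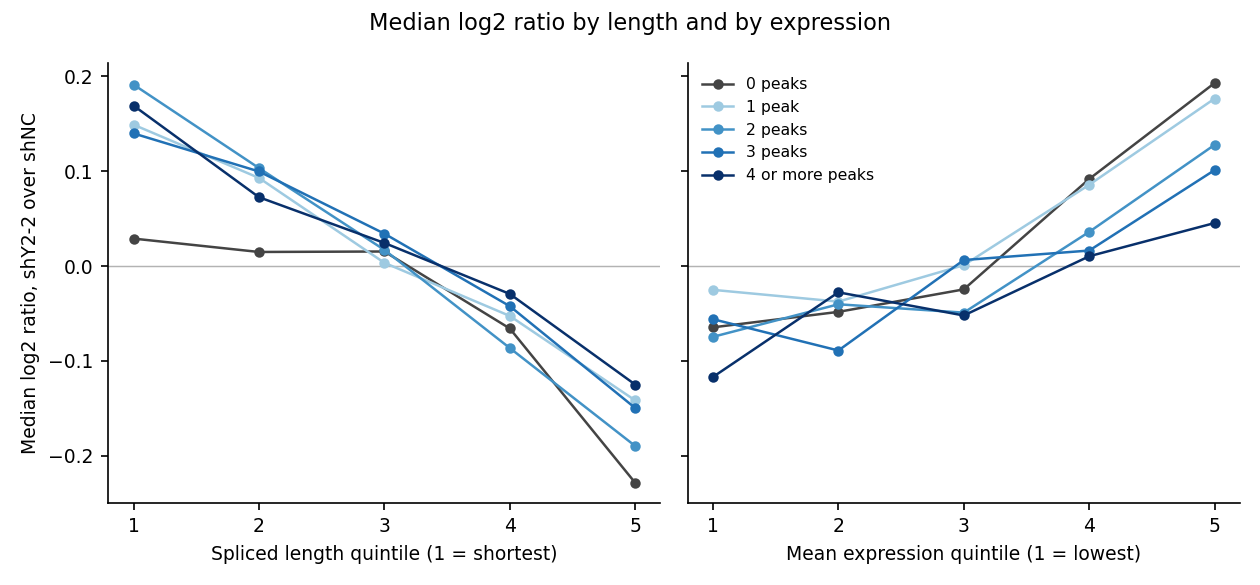
Median log2 ratio of shY2-2 over shNC (vertical axis) in 5 equal classes of spliced length (left) and of mean expression (right), with a line for each number of shNC peaks. All 5 lines are lower in the longest class than in the shortest, ending between -0.23 and -0.12, and in the highest class of expression they run from 0.19 at 0 peaks to 0.045 at 4 or more. The classes of length are not matched on expression, nor those of expression on length.

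Single genes show what the tails hold. Among genes with 4 or more peaks, ARL2BP, which binds the small GTPase ARL2, was at 5.86 in shNC and 18.3 in shY2-2, a log2 ratio of 1.49. It had 8 shNC peaks, 6 of them in the 3' UTR. RSAD1, a radical SAM domain protein, was at 5.37 and 15.6 with 5 peaks. ATP1B3, a beta subunit of the sodium pump, was at 23.3 and 59.9 with 4 peaks. Each carried peaks both in the 3' UTR and in the 5' UTR.

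BIN3 was at 2.36 and 5.80 and KIF2C, a mitotic kinesin that takes microtubules apart, at 19.6 and 39.7, each with 4 peaks. In the other direction, DAG1, which encodes the matrix receptor dystroglycan, was at 17.5 in shNC and 1.06 in shY2-2. Its log2 ratio of -3.17 was the lowest of all genes with 4 or more peaks, and its list of peaks went from 4 in shNC to 6 in shY2-2.

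ROCK2, a kinase that drives actomyosin contraction, was at 11.5 and 2.41 with 4 peaks. TMEM2, a cell-surface hyaluronidase, was at 27.9 and 7.85 with 5 peaks. AGR2, a protein disulfide isomerase of secretory epithelium, was at 62.3 and 19.1 with 4 peaks. AVL9 was at 6.73 and 1.49 with 8 peaks, as many as ARL2BP carried.

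Genes were also named for the most peaks, whatever their log2 ratio. PSMC1, an ATPase of the proteasome, carried 14 peaks and was at 15.3 and 21.5. PCDH9, a protocadherin, also carried 14 and was at 5.34 and 4.28. Their log2 ratios were 0.46 and -0.26, at percentiles 93.3 and 24.8 of the genes with 4 or more peaks. MPRIP, WDR33 and EXOC7 carried 11 each and had log2 ratios of -0.28, 0.39 and 0.03.

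Among genes with no peak, those named were again picked for high or low log2 ratios. CLDN2, a pore-forming claudin of tight junctions, was at 0.047 in shNC and 10.4 in shY2-2. NKRF, a repressor of NF-kappa-B targets, was at 0.67 and 9.40, and TIMM8B, a chaperone of the mitochondrial intermembrane space, at 10.8 and 37.6. HAVCR1, a phosphatidylserine receptor of the cell surface, was at 24.2 and 5.47. ANKRD2 was at 5.77 and 1.35, WASHC4 at 7.81 and 2.53, and CASC4 at 8.85 and 3.50. TIMM8B and WASHC4 had 1 peak each in the shY2-2 list, and the other genes of this kind had none in either list.

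**Figure D4:**
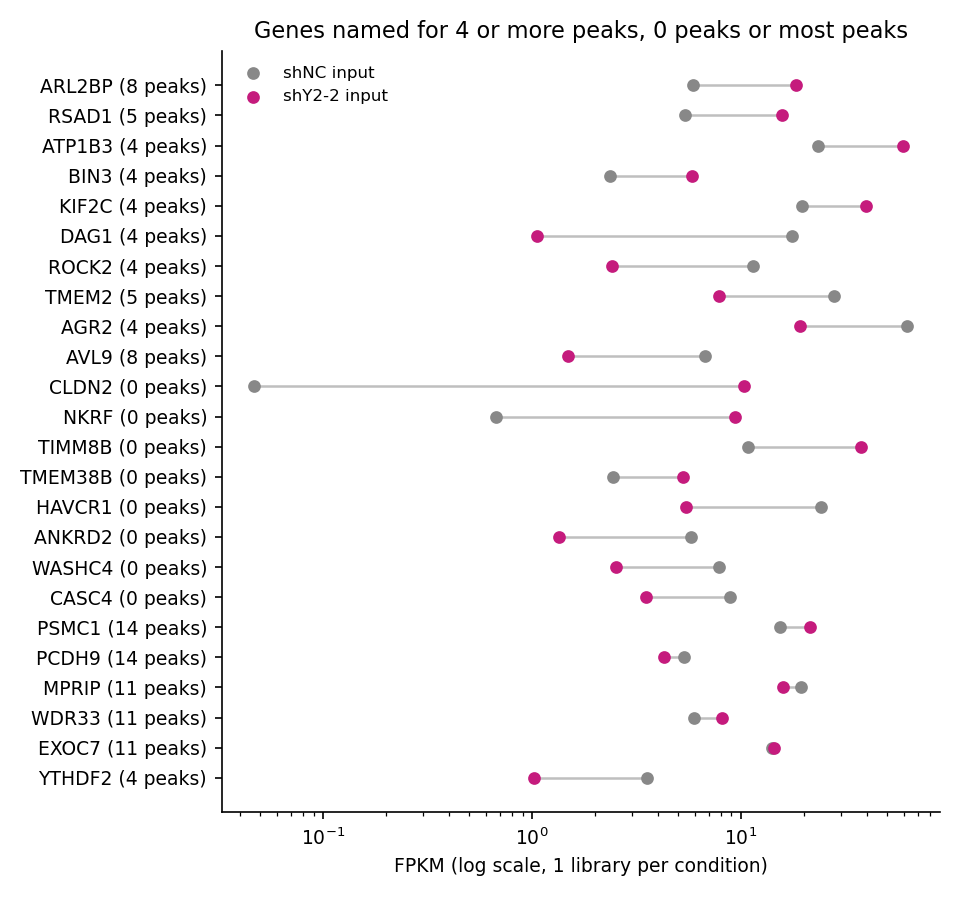
FPKM in the shNC input library (grey) and the shY2-2 input library (pink) on a log axis for the genes named for 4 or more peaks, for 0 peaks or for the most peaks, and for YTHDF2, with 1 library per condition. Genes with 0 peaks and with 4 or more were picked for their high or low log2 ratios and so show wide spans, such as HAVCR1 at 24.2 and 5.47, while the 5 genes with 11 or 14 peaks were picked by peak number alone.

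Genes with 1 to 3 peaks were named for high or low log2 ratios too. CCNE1, the cyclin that drives entry into S phase, had 1 peak, in the 3' UTR, and was at 12.1 in shNC and 39.0 in shY2-2, a log2 ratio of 1.61. RPUSD4, a mitochondrial pseudouridine synthase, also had 1 and a log2 ratio of 1.53. SUSD2, with 1 exon peak of 1.18-fold enrichment, was at 26.8 and 5.24. TM4SF4, a tetraspanin-like protein, was at 24.1 and 6.48.

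With 2 peaks, MPZL1, a membrane glycoprotein that binds the phosphatase SHP2, was at 5.38 and 25.5, and both its peaks lay in the 3' UTR. SPATA2, an adaptor of the deubiquitinase CYLD, was at 1.02 and 6.63. KIF5B, a kinesin heavy chain, also had 2 peaks in the 3' UTR and was at 48.6 and 13.4. MPZL1 and KIF5B were picked as a highest and a lowest log2 ratio of their group, so their distance follows from that choice.

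With 3 peaks, GABARAPL1, an autophagosome protein, was at 2.81 and 14.7, and its strongest peak had a 26.7-fold enrichment. SELENOF, a selenoprotein of the endoplasmic reticulum, was at 7.77 and 31.9. TMSB4X, which encodes the actin-sequestering thymosin beta-4, was at 529 and 103. FN1, fibronectin, was at 32.8 and 8.33. Among genes with peaks deposited as 5' UTR only, MRPL36, a mitochondrial ribosomal protein, was at 9.72 and 28.3. BANF1, a chromatin-bridging factor, had a log2 ratio of 1.11, while TMSB4X and TM4SF4 were the lowest named. In the canonical transcripts, the GGAC sites picked from these peaks lay in coding sequence for MRPL36 and TM4SF4. For BANF1 and TMSB4X they lay in the 3' UTR. The BANF1 peak covered 688 nt of exon, beside a spliced length of 731 nt, so its label gives no narrow location.

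Gene groups were read by role, beginning with the m6A machinery. All 9 writer genes carried peaks, beside 81.2% of all genes. Their log2 ratios ran from -0.44 (ZC3H13) to 0.56 (RBM15B) around a median of -0.091. METTL3, the catalytic subunit, was at 9.75 and 11.3, and METTL14, its partner, at 2.11 and 1.62. Both demethylases had 5 peaks and were higher in shY2-2. ALKBH5 was at 31.8 and 42.2, and FTO at 0.95 and 2.37.

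Of 10 reader genes, 4 were higher in shY2-2 and the median was -0.12. Of all genes, 81.2% carried a peak, 50.3% were higher and the median was 0.002. YTHDF1 was at 27.7 and 25.4 and YTHDF3 at 2.72 and 3.80, so the paralogs of YTHDF2 stayed within a log2 ratio of -0.12 and 0.36. IGF2BP1, which binds m6A mRNA and stabilises it, was at 13.2 and 22.4 with 5 peaks in shNC and 1 in shY2-2. Of 26 genes for deadenylation and decay, 25 carried a peak, 9 were higher and the median was -0.13. CNOT1, the scaffold of CCR4-NOT, was at 27.0 and 16.0, and CNOT11, another subunit, at 13.3 and 21.3.

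Short-lived regulators, whose mRNAs turn over quickly, were read because decay acts strongly on them. Of 41 such genes, 37 carried a peak, 15 were higher in shY2-2 and the median was -0.28. Of all genes, 81.2% carried a peak, 50.3% were higher, 0.986% lay above 1 and 2.14% below -1. The gene of the list above 1 was CCNE1, and the 3 below -1 were CYR61 at 22.3 and 7.76, JUN at 13.3 and 5.18, and CTGF at 4.43 and 1.66. MYC, with 1 peak, was at 15.0 and 15.7. The 8 members with 4 or more peaks had a median of 0.10 and the 4 with none a median of -0.44, which are few genes.

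Housekeeping groups of short mRNAs were on the higher side. Of all genes, 81.2% carried a peak and 50.3% were higher in shY2-2. In the shortest length class 63.3% were higher (70.4% of those with a peak), and in the next class 59.6%. Of 85 genes for cytosolic ribosomal proteins and their close relatives, with a median spliced length of 869 nt, 83 carried a peak and 83 were higher in shY2-2. Their median log2 ratio was 0.35, and it was 0.36 in the 35 with 4 or more peaks. The lowest was RPS27L, a p53-responsive paralog, at 16.6 and 8.41, followed by RPS13 at 145 and 136, and the highest was RPS12 at 283 and 443. Of 37 proteasome genes, all with a peak, 30 were higher with a median of 0.30, from PSMA2 at 13.2 and 11.5 to PSMB2 at 18.1 and 28.1. Of 37 complex I genes, 27 were higher with a median of 0.15, from NDUFA3 at 12.4 and 10.4 to NDUFA8 at 43.3 and 70.2, and the 4 without a peak had 0.11. None of these 3 groups had a gene above 1 or below -1, beside 0.986% and 2.14% of all genes. Many of their mRNAs have near-identical pseudogenes with which reads can be shared.

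Zinc finger genes, numbered by the ZNF symbols, encode mostly DNA-binding repressors. Their median spliced length was 3656 nt and their median shNC FPKM 2.35, beside 2912 nt and 5.18 for all genes. Of 240 with enough RNA, 202 carried a peak and 102 were higher in shY2-2, beside 81.2% and 50.3% of all genes. Their median was -0.049, at -0.11 for the 38 without a peak and -0.039 for those with one. Above 1 lay 2 of them, ZNF71 at 0.41 and 3.96 with 3 peaks and ZNF48 at 1.33 and 4.15 with 2. Below -1 lay 3, ZNF302 at 6.11 and 1.77 with 4 peaks, ZNF711 at 2.60 and 0.77 with 1, and ZNF185 at 4.68 and 1.76 with none. These numbers are near the shares of all genes, 0.986% and 2.14%.

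**Figure D5:**
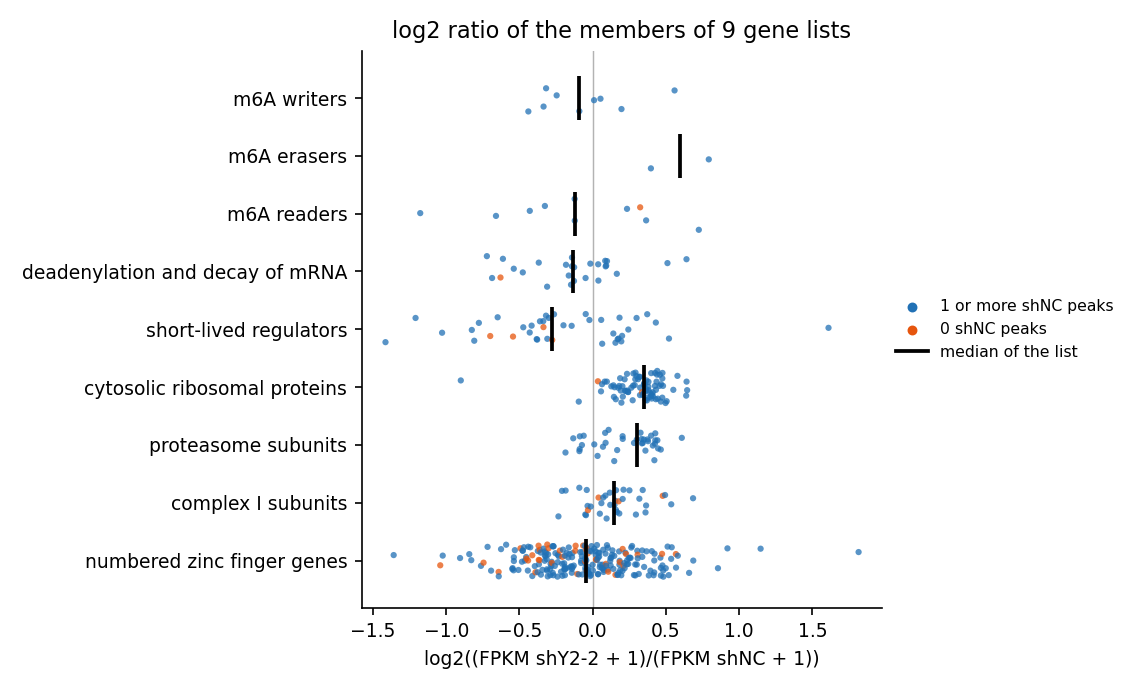
Each point is a gene of one of 9 lists (vertical axis, jittered), placed by its log2 ratio of shY2-2 over shNC, blue with a shNC peak and orange without, with a black bar at the list's median. Ribosomal protein and proteasome genes lie mostly right of 0 with medians of 0.35 and 0.30, and short-lived regulators lie mostly left of 0 with a median of -0.28.

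The filter on FPKM left out 1822 genes with a shNC peak, and 236 peak gene IDs were not in the table of RNA levels. Of the 100 genes just inside the filter 45% had a peak and the median log2 ratio was -0.030. Of the 100 just outside 40% had a peak and the median was -0.057. On the same strand, 2415 of the 12268 genes share exon sequence with another gene, and their reads and peaks can be assigned to either.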

How the data were processed

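The authors aligned reads with HISAT2 to GRCh38, estimated gene levels with StringTie and called m6A peaks with exomePeak, and the submitters' notes also name fastp, ChIPseeker and HOMER. Their versions are not given in the sources used here. The deposited FPKM values are per gene for the 2 input libraries. The deposited peak lists hold, per peak, a p-value, a log10 score of p and FDR, and a fold ratio of pull-down over input. Duplicated rows were dropped, leaving 31057 of 31091 shNC rows and 27344 of 27355 shY2-2 rows.

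Log2 ratios used a pseudocount of 1. Matching used 5 by 5 bins of mean expression and spliced length, with at least 5 genes of each side in a cell. Length came from canonical transcripts of GENCODE release 44, which may differ from the authors' annotation; 66 genes had none. No test was run, since each condition has 1 input library and FPKM are not counts. The steps were tested on simulated data.

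Named genes were, in each tag group, the highest and lowest log2 ratios among protein-coding genes that reached an FPKM of 5 in either library and share no exon, up to 5 each way, then the genes with most peaks, YTHDF2, and the extremes of each gene list and its members past 1 or -1. METTL3, METTL14, YTHDF1, YTHDF3 and MYC were added after their values were seen. Members, lists and rules were chosen with earlier results of these data known. Alternatives varied the pseudocount, filters, peak lists, matching and gene sets. Python 3.11.15, NumPy 2.4.6, pandas 2.3.3, SciPy 1.17.1 and matplotlib 3.10.9 were used.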

Additional observations from a re-analysis of the deposited data

How the results depend on the processing

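No value here has a replicate check, and FPKM keeps no depth, so differences of a few hundredths on the log2 scale cannot be given an error. No paired analysis was possible because each condition has 1 input library and no result comes from a test. Of 144 recomputed differences between tagged and untagged genes, 122 lay within 0.05 of the reported value and 20 were below 0. A margin of 0.05 is wider than each reported difference by tag number, so it also takes in changes of sign and does not show that these differences are stable. Of the 21 settings, 2 (genes in the same group in both lists, and length of all merged exons) were chosen after seeing the data.

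The numbers of genes above 1 and below -1 were 315 and 602 with a pseudocount of 0.1, and 43 and 60 with 5. Above 1 lay 77 of the genes that reached 1 FPKM in both libraries, and 69 once genes that share exons were left out. With shY2-2 peaks the matched difference was 0.077 for 3 peaks and 0.096 for 4 or more. With peaks that overlap between the lists it was 0.067 for 2, 0.087 for 3, 0.098 for 4 or more, 0.068 for 3' UTR only and 0.088 for exons only. With a fold of at least 4 it was 0.11 for 2, 0.10 for 3, -0.095 for 4 or more (19 genes), 0.068 for 3' UTR only, 0.094 for exons only and -0.0018 for 5' UTR only. With an FDR of at most 0.001 it was 0.012 for 5' UTR only. With expression from shNC it was 0.069 for 3 and 0.085 for 4 or more, and from shY2-2 it was -0.042 for 4 or more. Matched on expression only it was -0.069 for 4 or more. Matched on length only it was 0.048 for 2, 0.057 for 3 and 0.061 for 4 or more. Unmatched it was 0.14 for 5' UTR only. The cause of these shifts was not tested.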
